A study of Mus musculus with 24 samples.

Results

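The livers of mice lacking Rab30 in the whole body (Rab30KO) were compared with those of their wildtype littermates (Rab30 Ctrl), 4 mice against 4, across every gene expressed after a 24 h fast. The 8 libraries were taken by their genotype labels from 24 libraries of the same fasting experiment. Of 54532 genes listed, 13656 had enough counts to be tested. All mice were young adult males that were fasted for 24 h and collected in the afternoon. The Rab30KO mice (libraries KO1 to KO4) lack exon 4 of Rab30 in every tissue, a deletion obtained while the floxed allele was made with CRISPR-Cas9, and the Rab30 Ctrl mice (WT951, WT952, WT281 and WT221) carry no targeted allele. The other 16 libraries come from mice lacking Rab30 (Rab30L-/-), Cpt2 (Cpt2L-/-) or both (DKO) in hepatocytes, through a Cre recombinase driven by the albumin promoter, and from floxed controls (ff;ff). The ff;ff mice are floxed at both Rab30 and Cpt2 and are labeled as littermates of DKO, not of Rab30L-/-. These 16 libraries are used here for comparison with Rab30KO, including a fit of Rab30L-/- against ff;ff, and in alternative fits. The 8 libraries held 11801027 to 17417065 counts in Rab30KO and 14709834 to 20401129 in Rab30 Ctrl. The difference in depth did not pass an exact permutation test (two-sided p = 0.143, adjusted p = 0.286 over 4 library measures, where the smallest p the design allows is 0.0286). The share of counts from mitochondrially encoded genes, the share in the 10 most abundant genes and the number of genes detected did not pass it either, with adjusted p-values of 0.876, 0.971 and 0.229.

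Rab proteins are small GTPases that switch between a membrane-bound GTP form and a cytosolic GDP form, and each marks particular membranes of the secretory and endocytic routes. Rab30 is found mainly on the Golgi apparatus, where secreted proteins and lipoproteins are sorted. In a fasted liver, fatty acids released by adipose tissue are oxidized, turned into ketone bodies or exported again as lipoprotein triglyceride, so a Golgi Rab is of interest for hepatic lipid traffic in that state.

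The removed exon is shown first, because it sets what the counts can say about the targeted gene. Rab30 lies on chromosome 7, from 92741603 to 92844535 on the plus strand of GRCm38, and its annotated transcript has 5 exons. Exon 4, at chr7:92829526-92829709, is 184 bases long and entirely coding. In the sequence below, read from the GENCODE M21 transcript, exon 4 is in capitals and the lower-case letters are the last 10 bases of exon 3 and the first 10 of exon 5.
Rab30 exon 4: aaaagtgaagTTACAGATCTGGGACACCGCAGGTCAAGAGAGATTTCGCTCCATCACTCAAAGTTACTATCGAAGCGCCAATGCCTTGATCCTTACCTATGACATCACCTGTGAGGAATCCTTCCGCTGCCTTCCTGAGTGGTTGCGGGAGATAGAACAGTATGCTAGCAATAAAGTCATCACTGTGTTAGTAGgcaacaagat
The exon makes up 30.2% of the coding sequence but 1.95% of the 9456-base transcript, most of which is the last exon. Its length leaves a remainder of 1 when divided by 3. When exon 3 is joined to exon 5 in the annotated sequence, the reading frame meets a stop after 104 codons, 45 of them past the last whole codon before the junction, against 203 codons in the intact transcript. Counts per gene cover the whole transcript, so they check neither the deletion nor the labels. The paper reports that Rab30KO mice lack Rab30 protein in brain and spleen. It also reports no Rab30 mRNA by qRT-PCR, whose forward primer lies inside exon 4.

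Rab30 transcript was present in all 8 livers, and its level varied widely between mice of 1 genotype. In CPM, the counts of a gene scaled to a common library size and composition, Rab30 stood at 11.9 in KO1, 5.33 in KO2, 9.36 in KO3 and 16.9 in KO4, and at 29.5 in WT951, 10.9 in WT952, 6.47 in WT281 and 8.38 in WT221. The groups overlapped and WT951 was the highest of the 8. The log2 fold change of Rab30KO over Rab30 Ctrl was -0.34 ± 0.51 (SE), with an unadjusted p of 0.513 in edgeR's quasi-likelihood test. Per length of transcript, Rab30 ranked 37 of 59 Rab genes, at 0.569 to 1.79 FPKM in Rab30KO and 0.691 to 3.10 in Rab30 Ctrl, whereas Rab7, the late endosomal Rab that ranked first, stood at 64.7 to 101 FPKM over both groups. Cpt2, which imports fatty acids into mitochondria and is deleted elsewhere in the study, had mean CPM of 145 ± 41.2 among Rab30KO and 182 ± 19.8 among Rab30 Ctrl livers (SD, n = 4), and its log2 fold change was -0.32 ± 0.22. The 9 tested genes that start within 1 Mb of the start of Rab30 held none with an unadjusted p under 0.05. Among them, Pcf11, a factor of transcript 3' end formation, had a log2 fold change of 0.08 ± 0.16, and Prcp, a lysosomal carboxypeptidase, one of -0.25 ± 0.20.

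Across the liver transcriptome, 3 genes rose in Rab30KO and none fell past the thresholds used throughout, which asked for a 1.2-fold difference or more and an adjusted p under 0.05. These are 0.022% of the 13656 genes tested. Lower genes did pass in some other fits, 4 with the DESeq2 Wald test, 5 with all 24 libraries and 3 with no filter on low counts. At an unadjusted p under 0.05 with the same fold, 302 genes (2.21%) were counted, 121 higher (0.886%) and 181 lower (1.33%) in Rab30KO. Leaving out 1 library moved this count between 159 (without WT952) and 770 (without WT951). The 2 groups did not overlap in 178 genes (1.3%). Without any difference, a share of 0.05 of genes would reach such a p before the fold rule, and a share of 0.0286 would not overlap. Both shares lie below these, so meeting either rule does not by itself mark a gene as changed. The median log2 fold change was -0.0028 and its median size 0.15, and 72.1% of genes lay within 1.2-fold. The median standard error of a log2 fold change was 0.23.

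**Figure D1:**
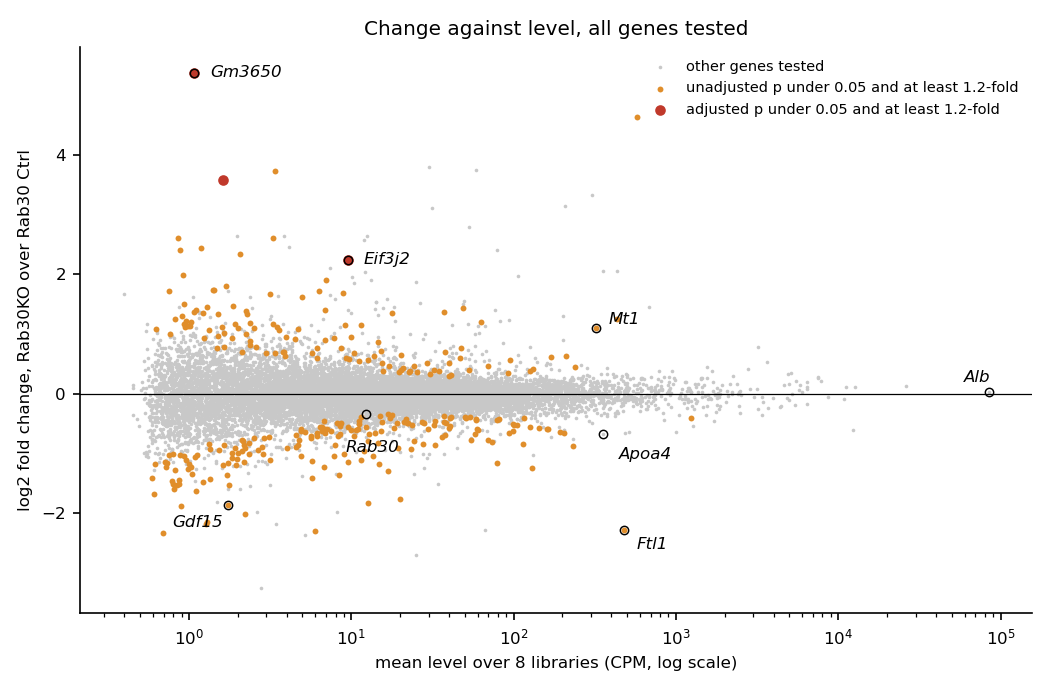
Mean level of each gene over the 8 libraries (CPM, log scale) against its log2 fold change of Rab30KO over Rab30 Ctrl. Red points are the 3 genes past the thresholds, all above 0, orange points the other genes with an unadjusted p under 0.05 and at least 1.2-fold, and circled genes are named in the text. Alb lies at 0.03 and Rab30 at -0.34.

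Of the 3 genes that rose, the 2 described here are neighbors on chromosome 18, and both are near copies of genes on chromosome 2. Eif3j2 (18, 43475418 to 43477796) encodes a form of subunit J of translation initiation factor eIF3, and its transcript matches Eif3j1 over 2379 bases at 99.4% identity. Eif3j2 stood at 11.9, 15.2, 13.7 and 22.2 CPM in KO1 to KO4 and at 4.33, 1.92, 3.14 and 3.99 CPM in the Rab30 Ctrl libraries, so that its log2 fold change was 2.24 ± 0.29 (edgeR adjusted p = 0.0314). Its parent Eif3j1 had a log2 fold change of -0.26 ± 0.22, and the summed CPM of both genes ran from 50.2 to 82.8 among Rab30KO and from 42.7 to 76.8 among Rab30 Ctrl livers (exact permutation p = 0.6, adjusted p = 0.876 over 4 such sums).

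Gm3650 (18, 43472816 to 43475169) is an annotated pseudogene whose transcript matches Spg11, a gene of lysosome and autophagosome recycling, over all 747 bases at 99.9% identity. Gm3650 stood at 3.16, 2.25, 1.41 and 1.63 CPM in KO1 to KO4 and at or below 0.0665 CPM in Rab30 Ctrl, where the 4 libraries held 3 counts together against 116 in Rab30KO. The ratio per unit of depth was 47.5-fold, with a 95% exact interval for counting error of 15.8 to 233, and the fitted log2 fold change was 5.37 ± 0.60 (edgeR adjusted p = 0.0169). Spg11 itself had a log2 fold change of -0.04 ± 0.15, and Spg11 plus Gm3650 came to 24.3 ± 2.87 CPM against 22.9 ± 2.18. How reads that match both copies were counted is not given in the sources used here, so the split between each pair is uncertain. In the 16 libraries of the other genotypes Eif3j2 reached at most 4.82 CPM and Gm3650 at most 0.611 CPM, below every Rab30KO library. The direction held with each library left out, but the calls did not. Eif3j2 lost its call whichever library was left out (edgeR adjusted p 0.0517 to 0.218). Leaving out 1 library at a time, the log2 fold change stayed at 2.02 to 2.4 for Eif3j2 and 5.01 to 5.57 for Gm3650, but Eif3j2 passed the adjusted threshold in 0 of 8 such fits and Gm3650 in 4.

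Ferritin light chain, the iron-storage subunit, held a difference that did not pass the adjusted threshold in edgeR on the 8 libraries but separated the groups at a high level. Ftl1 (7, 45457944 to 45459884) stood at 268, 139, 131 and 120 CPM in KO1 to KO4 and at 485, 553, 823 and 1314 CPM in WT951, WT952, WT281 and WT221. The groups did not overlap, and the log2 fold change was -2.27 ± 0.37, with an unadjusted p of 7.88e-05 and an adjusted p of 0.269 in edgeR. Ftl1 did pass the thresholds with the DESeq2 Wald test and with all 24 libraries in the fit. All 20 libraries outside Rab30KO were higher in Ftl1 than the highest Rab30KO library, the lowest of them at 494 CPM and the highest Rab30KO library at 279 CPM on the scale of 24 libraries.

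Among the near copies of Ftl1, Ftl2-ps was placed the other way. Ftl2-ps (4, 125504288 to 125504839), a processed copy that differs from Ftl1 at 7 of 552 bases, stood at 709.8, 719, 786 and 584 CPM in KO1 to KO4, at 318 and 359 in WT951 and WT952, and at 0.554 and 0.0665 in WT281 and WT221. Ftl2-ps therefore fell into 3 tiers, highest in all Rab30KO mice, intermediate in WT951 and WT952 and near 0 in WT281 and WT221, and its log2 fold change was 2.05 ± 1.85 (unadjusted p = 0.308). In the 16 libraries of other genotypes it was at most 0.961 CPM. Gm15590, another copy with 99.5% identity to the related Ftl1-ps1 gene, showed the same order at a lower level, 12.8 to 14.6 CPM in Rab30KO, 6.32 and 6.34 in WT951 and WT952, and 2.03 and 2.19 in WT281 and WT221. Summed over Ftl1, Ftl2-ps, Ftl1-ps1, Gm15590 and Gm12164, ferritin light chain reads averaged 881 ± 117 CPM among Rab30KO and 977 ± 241 among Rab30 Ctrl livers (SD, n = 4; exact permutation p = 0.657, adjusted p = 0.876). The set was put together after its values were seen. How reads that match several copies were assigned was not tested. Of 3 other iron genes, Fth1, the ferritin heavy chain, differed by -0.15 ± 0.20 on the log2 scale and Hamp, which encodes hepcidin, by -0.08 ± 0.21, while Slc40a1, the iron exporter ferroportin, stood at 275 ± 56.1 against 201 ± 20.8 CPM (log2 0.45 ± 0.18, unadjusted p = 0.0244).

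Vcp, an AAA ATPase that extracts proteins from membranes for degradation, also differed in the opposite direction to a copy, here on the X chromosome. Vcp stood at 193 to 229 CPM in Rab30KO and 115 to 177 in Rab30 Ctrl, and Vcp-rs, 99.05% identical over 2421 aligned bases, at 125 to 136 in Rab30KO and 176 to 238 in Rab30 Ctrl. The groups did not overlap in either gene, in opposite directions, with log2 fold changes of 0.61 ± 0.17 and -0.59 ± 0.15. The sum of Vcp and Vcp-rs was 335 ± 14.8 CPM in Rab30KO against 330.0 ± 56.7 in Rab30 Ctrl (exact permutation p = 0.914). Pseudogenes as a class made up 4.06% of the genes tested and 10.3% of the 302 genes at an unadjusted p under 0.05, 31 in number. Of these 31, 22 matched a protein-coding transcript at 95% identity or more, and where the match itself was tested, in 20, its log2 fold change had the opposite sign in 10. Unrelated signs would give about as many, so nothing on reads shared between copies can be read from this count.

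**Figure D2:**
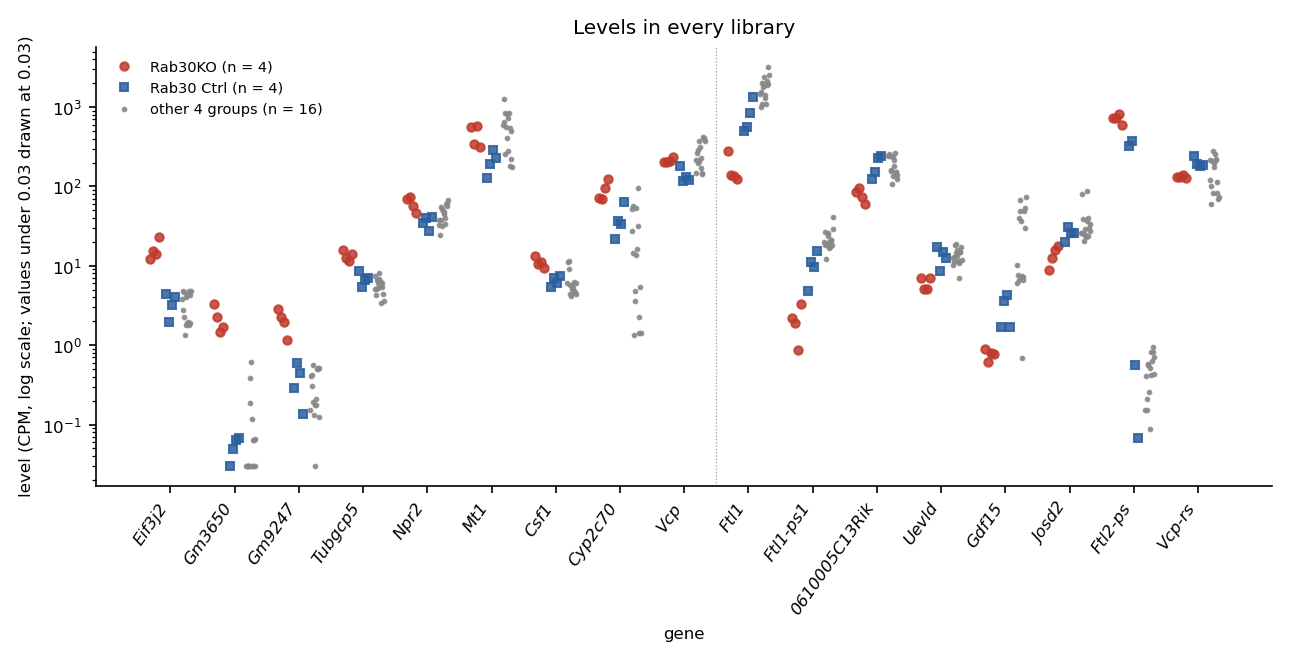
Level of 17 genes (CPM on a log scale, all 24 libraries scaled together) in each Rab30KO library (red circles), each Rab30 Ctrl library (blue squares) and the 16 libraries of the other genotypes (grey dots). Left of the dotted line are genes higher in Rab30KO, right of it genes lower in Rab30KO and the ferritin copy Ftl2-ps. Eif3j2, Gm3650, Gm9247, Tubgcp5 and Ftl2-ps are above all 20 other libraries in Rab30KO, and Ftl1, Ftl1-ps1, 0610005C13Rik, Uevld and Josd2 are below all 20.

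Among other protein-coding genes whose groups did not overlap, none passed the adjusted threshold, and their values are given as a description. On the higher side, Mt1, the metallothionein that binds zinc and copper, stood at 537, 341, 561 and 304 CPM in KO1 to KO4 and at 125, 185, 279 and 226 in the Rab30 Ctrl libraries (log2 1.10 ± 0.27, unadjusted p = 0.00182). Cyp2c70, the enzyme that makes muricholic bile acids in mice, stood at 68.2, 68.3, 94.1 and 120 CPM in Rab30KO and at 21.6, 35.6, 32.7 and 63.1 in Rab30 Ctrl (log2 1.198 ± 0.31, unadjusted p = 0.00287). Csf1, the growth factor of macrophages, was 10.8 ± 1.53 against 6.36 ± 0.89 CPM. The natriuretic peptide receptor gene Npr2 was 59.7 ± 12.6 against 34.98 ± 5.92 CPM, and Tubgcp5, part of the gamma-tubulin complex, 13.2 ± 1.65 against 6.83 ± 1.32 CPM. All 5 were higher in each Rab30KO library than in any Rab30 Ctrl library. Of the 16 libraries of the other genotypes, however, 11 exceeded the lowest Rab30KO library in Mt1, 8 in Npr2, 2 in Csf1, 1 in Cyp2c70 and 0 in Tubgcp5.

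On the lower side, Gdf15, a stress-induced hormone that reduces food intake, averaged 0.75 ± 0.112 CPM among Rab30KO and 2.74 ± 1.27 among Rab30 Ctrl livers (log2 -1.86 ± 0.41, unadjusted p = 0.000695, adjusted p = 0.862). Its 4 Rab30KO values, 0.87, 0.600, 0.775 and 0.754 CPM, lay under all 4 of Rab30 Ctrl, 1.65, 3.5, 4.13 and 1.66 CPM. Uevld was 5.92 ± 1.05 against 13.1 ± 3.6 CPM and Josd2, which encodes a deubiquitinase, 13.4 ± 3.81 against 25.2 ± 4.31 CPM. Capn3, a calpain protease, Ppih, a spliceosomal cyclophilin, Pop4, a subunit of RNase P, the kinase gene Vrk3, Gpatch1, Rusc2 and AA986860 completed the leading lower genes, with log2 fold changes from -1.51 to -0.59. On the higher side the list was completed by Tcp11l1, Pepd, a dipeptidase of proline recycling, Slc6a16 and Synm, an intermediate filament protein, with log2 fold changes from 0.51 to 1.34.

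Many of these genes sit on chromosome 7, the chromosome of Rab30, and the position of the differences was therefore counted. This was chosen after the values were seen and is a description with no test. Of 1035 genes tested on chromosome 7, 68 (6.57%) had an unadjusted p under 0.05 with at least 1.2-fold, against 2.21% of all genes and 0.797% to 3.38% on every other autosome. Within chromosome 7, 38 of 246 genes (15.4%) between 30 and 70 Mb met this rule, 12 higher and 26 lower. These bounds were set with the values in view: in bins of 10 Mb, 3 of 38 genes (7.89%) met it between 60 and 70 Mb, inside the stretch, and 6 of 57 (10.5%) between 0 and 10 Mb and 6 of 90 (6.67%) between 10 and 20 Mb, outside it. The rest of chromosome 7 as a whole gave 30 of 789 (3.8%) and all other chromosomes 234 of 12621 (1.85%). The groups did not overlap in 23 of 246 genes (9.35%) in that stretch and 155 of 13410 (1.16%) outside it.

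The stretch does not include Rab30 itself. Within 5 Mb of the start of Rab30, 2 of 36 genes (5.56%) had an unadjusted p under 0.05, beside 1.97% outside the 30 to 70 Mb stretch, and the 10 Mb bin with the highest share, 22.2%, ran from 50 to 60 Mb with 4 of 18 genes. The 40 to 50 Mb bin held the most, 20 of 109 genes, 17 of them lower in Rab30KO. They include Ftl1, Josd2, Vrk3, Uevld, the E2F repressor E2f8 (log2 -1.10 ± 0.47), Saa4, a constitutive serum amyloid A (log2 -0.84 ± 0.35), and Irf3, a transcription factor of the interferon response (log2 -0.54 ± 0.19). Tubgcp5 and the magnesium transporter gene Nipa2 (log2 0.51 ± 0.16) lie between 50 and 60 Mb and were higher.

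The share was higher in this stretch than outside it in each alternative run. These runs reuse the libraries from which the bounds were set, so they are no independent check of the stretch. Leaving out 1 library at a time, it was between 11.3% and 18.8% in the stretch and between 0.941% and 5.33% outside. The share outside moved most without WT951 (5.33%), without KO2 (4.33%) and without WT952 (0.941%). With other tools, scalings and filters it was 11.6% to 19% inside and 1.92% to 3.95% outside. In the comparison of Rab30L-/- with ff;ff, fitted on its own 8 libraries, the same stretch held 17 of 234 genes (7.26%) and the rest of the genome 1478 of 13133 (11.3%).

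The same stretch also held genes that set Rab30KO apart from all other mice of the experiment. In 38 genes (0.278%) the 4 Rab30KO libraries lay above or below all 20 others, 23 above and 15 below. Of the 38, 15 were in the 30 to 70 Mb stretch, which is 6.1% of its genes, against 0.172% of the genes outside it. They include Tubgcp5, Slc6a16 and Synm above and Ftl1, 0610005C13Rik, Uevld, Josd2, Vrk3 and Gpatch1 below. Outside chromosome 7, Il18, an inflammasome cytokine, at 10.5 to 13.3 CPM against at most 9.22, was above all 20 others, although it did not pass the adjusted threshold against Rab30 Ctrl. Ddit3, the stress transcription factor CHOP, was below all 20, at 3.64 to 4.45 CPM against at least 4.54.

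Shorter runs of such genes, also singled out after the values were seen, lay on chromosomes 4, 2 and 17. Between 42 and 46 Mb of chromosome 4, 8 of 43 genes (18.6%) had an unadjusted p under 0.05, beside 2.21% of all genes, among them Vcp, Npr2, Rusc2 and Gba2. On chromosome 2 a run of 4 Mb held 7 of 64 (10.9%), among them Capn3 and Gatm, the first enzyme of creatine synthesis (log2 0.87 ± 0.23). On chromosome 17, 3 of 13 genes (23.1%) between 6 and 7 Mb met the rule. The study gives its mouse strain as C57/BL6J, and linkage to the Rab30 allele was not tested.

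**Figure D3:**
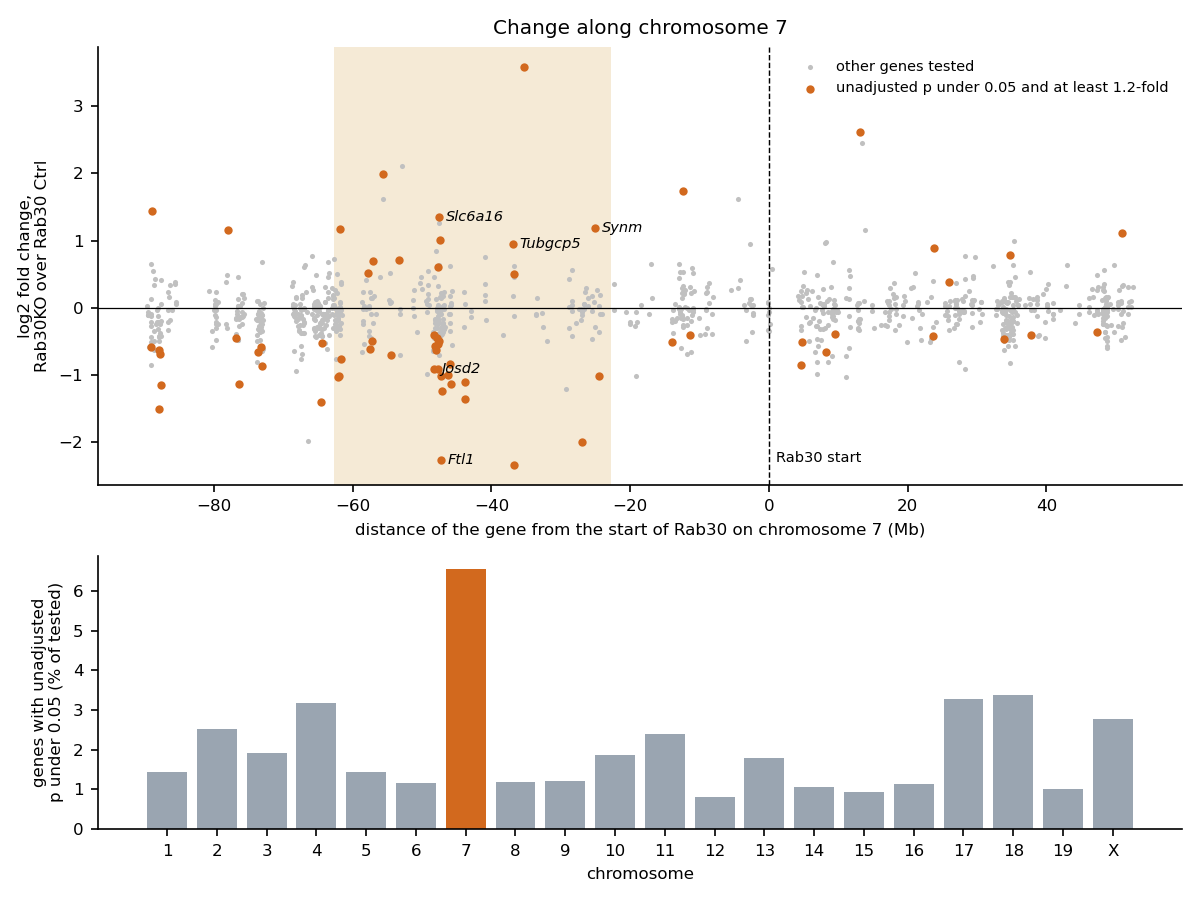
Upper panel, log2 fold change of each tested gene on chromosome 7 against its distance from the start of Rab30 in Mb; orange points have an unadjusted p under 0.05 and at least 1.2-fold, and the shaded band is the stretch from 30 to 70 Mb. Lower panel, percent of tested genes on each chromosome that met this rule, 6.57% on chromosome 7 and at most 3.38% on any other chromosome drawn.

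Whether loss of Rab30 altered the fasting program was asked next, with hand-written gene lists described by their counts and medians. No member of any list passed the adjusted threshold. For comparison, all genes tested had a median of -0.0028 with 6737 above and 6919 below 0, and the smallest adjusted p in any list was 0.862, that of Gdf15. In the list of Ppara targets and fatty acid oxidation genes, 0 of 44 tested members had an unadjusted p under 0.05, beside 2.21% of all genes, and the median log2 fold change was 0.01. Cyp4a14, the omega-hydroxylase that is a hallmark Ppara target, ranged from 1605 to 7018 CPM among Rab30KO and from 645 to 6750 CPM among Rab30 Ctrl livers, with a log2 fold change of 0.54 ± 0.72. Fgf21, the fasting hormone, was 4.42 ± 2.23 against 3.75 ± 2.86 CPM, and Pdk4, which restrains pyruvate oxidation, 9.75 ± 1.79 against 10.4 ± 6.72 CPM, with WT951 at 20.4 CPM and the other Rab30 Ctrl mice at 6.05 to 8.31.

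No ketone body or glucose synthesis gene on the lists had an unadjusted p under 0.05. All 7 ketone body genes lay within -0.14 and 0.18. Pck1, the gluconeogenic carboxykinase, differed by -0.10 ± 0.16. Of 26 gluconeogenesis and fasting regulators, 21 were below 0, with a median of -0.14 and the coactivator Ppargc1a at -0.44 ± 0.25, and 0 had an unadjusted p under 0.05.

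Lipid synthesis genes leaned to lower values in Rab30KO without passing the test. In the cholesterol synthesis list all 25 members had a log2 fold change below 0, with a median of -0.30. Pmvk, phosphomevalonate kinase, was the only member (4%, beside 2.21% of all genes) with an unadjusted p under 0.05, at -0.95 ± 0.38 (edgeR, unadjusted p = 0.0279). The summed level of the list was 1709 to 2739 CPM across Rab30KO and 2415 to 3648 CPM across Rab30 Ctrl mice, so the groups overlapped. KO3 was the lowest of the 8 and WT221 the highest. The remaining mice stood at 2628 to 2739 CPM in Rab30KO and 2415 to 2921 CPM in Rab30 Ctrl. In the fatty acid synthesis list 17 of 19 tested members were below 0, with a median of -0.16. Srebf1, the transcription factor of that program, differed by -0.03 ± 0.32, Fasn by -0.33 ± 0.25, Acaca by -0.20 ± 0.20 and Scd1, the stearoyl-CoA desaturase, by -0.36 ± 0.47.

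Of the apolipoprotein and lipoprotein handling genes, none passed the adjusted threshold. Apob, the backbone of VLDL, averaged 6727 ± 526 CPM among Rab30KO and 6194 ± 966 CPM among Rab30 Ctrl livers, with a log2 fold change of 0.12 ± 0.17. Apoa4, an apolipoprotein of triglyceride-rich particles, stood at 137, 264, 376 and 314 CPM in KO1 to KO4 and at 513, 187, 762 and 278 CPM in WT951, WT952, WT281 and WT221. These ranges overlapped, and the log2 fold change was -0.67 ± 0.45 (unadjusted p = 0.165). Apoa1 differed by -0.21 ± 0.24, Apoa5 by 0.01 ± 0.17, Apoc3 by -0.03 ± 0.16 and Apoe by -0.60 ± 0.32. Apoc4, whose gene neighbors Apoe on chromosome 7, was the only one of 28 lipoprotein genes (3.57%) with an unadjusted p under 0.05, at 164 ± 47.7 against 299 ± 171 CPM, where WT952 alone stood at 543 CPM.

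Genes of the membranes on which Rab30 acts were examined next. In the list of Golgi and ER-to-Golgi transport genes, 0 of 60 members had an unadjusted p under 0.05, beside 2.21% of all genes, every log2 fold change lay between -0.29 and 0.24, and the median was 0.03. Golga4, a golgin of the trans-Golgi, differed by -0.28 ± 0.16, and Mia2, a cargo receptor for large particles at ER exit sites, by 0.01 ± 0.18. In the lysosome and autophagy list 0 of 50 members met the rule, with a median of 0.02. At the share of all genes, lists of this size hold few such members, and the counts of 0 lie near it. Becn1, Atg7, Atg12, Vps11, Pik3c3, Map1lc3b, Lamp2, Lipa and Ctsf had log2 fold changes from -0.42 to 0.20 with standard errors up to 0.42. Lamp2, a lysosomal membrane protein of chaperone-mediated autophagy, was 964 ± 199.6 CPM in Rab30KO and 845 ± 247 in Rab30 Ctrl.

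Other Rab genes and the putative binding partners of Rab30 held 1 gene each with an unadjusted p under 0.05. Of 43 tested Rab genes apart from Rab30, 1 had an unadjusted p under 0.05, which is 2.33% beside 2.21% of all genes, and the median log2 fold change was 0.04. That gene was Rab32, a Rab of mitochondria and lysosome-related organelles, at 36.8 ± 4.81 against 28.1 ± 2.84 CPM (log2 0.39 ± 0.15, unadjusted p = 0.0241). Rab7 differed by 0.18 ± 0.16 and Rab14, a Rab of the Golgi and endosomes, by 0.05 ± 0.20. Among 15 putative partners of Rab30 from the yeast two-hybrid list, Ocrl, an inositol phosphatase of the trans-Golgi and endosomes, was 11.2 ± 1.75 against 7.44 ± 1.37 CPM (log2 0.59 ± 0.21, unadjusted p = 0.0147), and the other 14 did not reach that p.

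Genes for secreted proteins and stress responses were read against the 2.21% of all genes with an unadjusted p under 0.05. In complement and coagulation, 0 of 55 members had an unadjusted p under 0.05, with a median of 0.04, and C3, the central complement component, differed by 0.19 ± 0.18. In the acute-phase list 20 of 26 members were above 0 with a median of 0.17, and 2 (7.69%) had an unadjusted p under 0.05, Mt1 higher and Saa4 lower. In the list of unfolded protein and ATF4 responses the median was 0.10, Hspa5, the ER chaperone BiP, differed by 0.24 ± 0.15, and the 2 of 27 members (7.41%) with an unadjusted p under 0.05, Gdf15 and Ddit3, were both lower. Ddit3 stood at 4.27, 3.6, 4.08 and 4.27 CPM in KO1 to KO4 and at 5.46, 6.86, 5.11 and 7.91 CPM in the Rab30 Ctrl libraries, with no overlap (log2 -0.64 ± 0.23, unadjusted p = 0.017).

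In the remaining hepatocyte programs, too, no gene passed the adjusted threshold, and the counts are again to be read beside 2.21% of all genes. In bile acid synthesis and transport 0 of 17 members had an unadjusted p under 0.05, in the clock genes 0 of 19 and in the growth hormone and IGF axis 0 of 16, where Igf1 differed by 0.31 ± 0.17 and Igfbp2 by -0.44 ± 0.23. Among 26 drug-metabolizing P450 genes only Cyp2c70 (3.85%) reached that p, and among 20 male-biased genes (5%) only Cyp4a12b, a male-specific fatty acid hydroxylase, at 71.5 ± 29.0 against 26.6 ± 15.7 CPM (log2 1.43 ± 0.50, edgeR unadjusted p = 0.0201). In 11 tested female-biased genes none did. In the cell cycle list E2f8 was the only one of 22 (4.55%).

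**Figure D4:**
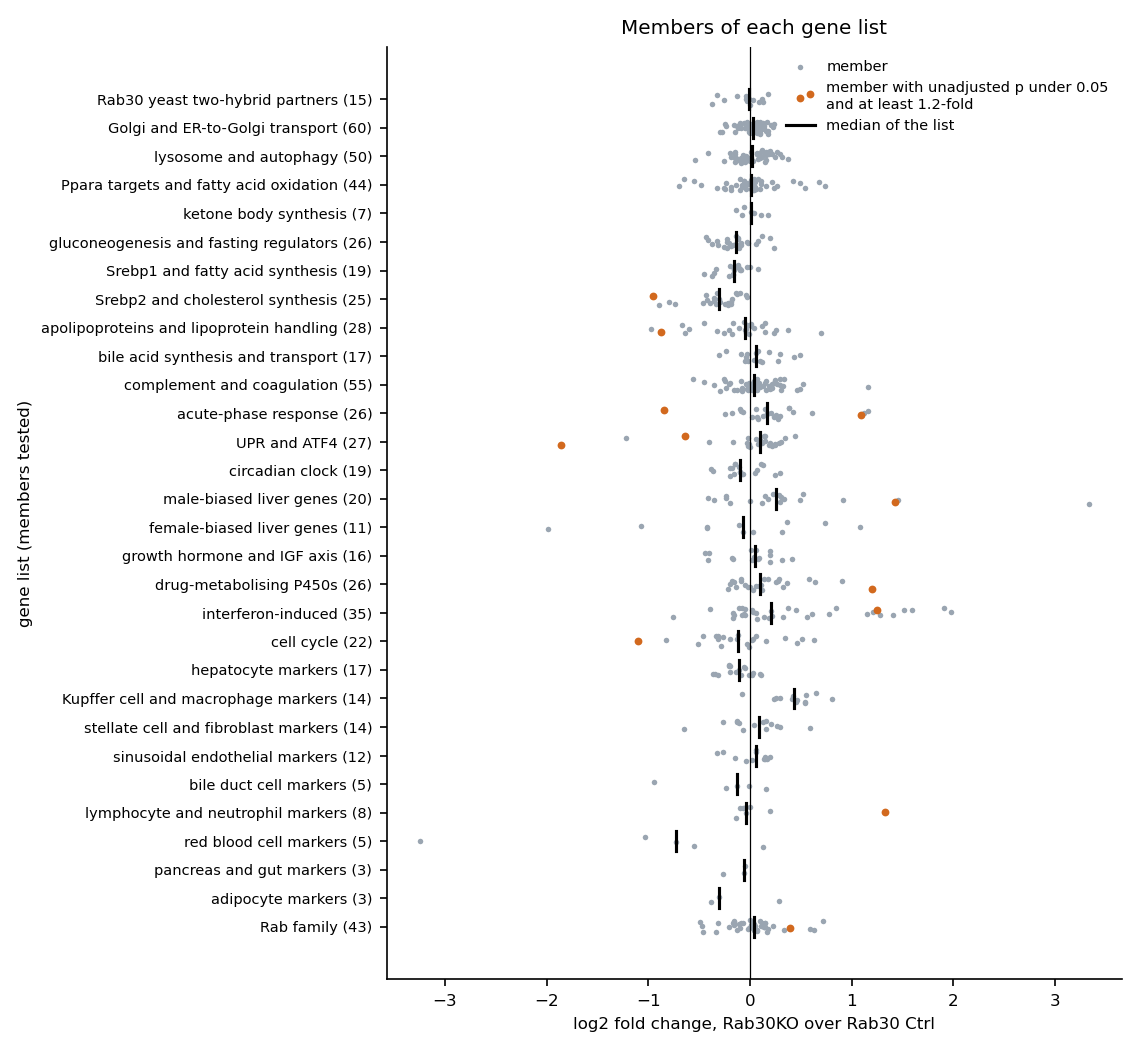
Log2 fold change of Rab30KO over Rab30 Ctrl for each tested member of 30 gene lists, with black bars at the medians and orange points for members with an unadjusted p under 0.05 and at least 1.2-fold. Most medians lie close to 0, the cholesterol synthesis list lies wholly below 0, and the interferon-induced list spreads to the right.

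The cell composition of the livers was read from marker genes, and in bulk RNA fewer cells of a type and less RNA per cell cannot be told apart. Hepatocyte markers dominated every library, as the label liver requires, with Alb at 70014 to 100740 CPM and a log2 fold change of 0.03 ± 0.19. No marker list had a member past the adjusted threshold. Kupffer cell and macrophage markers were above 0 in 13 of 14 members with a median of 0.43, but their summed level was 985, 410, 1962 and 568 CPM in KO1 to KO4 and 558, 818, 889 and 691 CPM in the Rab30 Ctrl libraries, so KO3 and KO1 were the highest of the 8 and KO2 the lowest. Red blood cell markers summed to 149 to 545 CPM across Rab30KO and 127 to 702 CPM across Rab30 Ctrl mice, and 4 of 5 tested members were below 0 with a median of -0.72. Stellate, sinusoidal endothelial and bile duct lists had medians of 0.08, 0.06 and -0.12, and the 3 tested adipocyte markers one of -0.31. Among lymphocyte and neutrophil markers Cd4 had an unadjusted p of 0.0437, with KO3 at 6.97 CPM and the other Rab30KO mice at 1.32 to 2.93. Of 14 pancreas and gut markers 9 had no count in any of the 8 libraries.

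Interferon-induced genes separated the Rab30KO mice from each other rather than from their littermates. The summed level of the 35 genes was 1945 CPM in KO1 and 2676 in KO3, but 685 in KO2 and 843 in KO4, beside 661 to 1158 in Rab30 Ctrl. Iigp1, an interferon-inducible GTPase that attacks pathogen vacuoles, stood at 790, 216, 1087 and 361 CPM in KO1 to KO4 and at 321, 207, 336 and 171 CPM in the Rab30 Ctrl libraries (log2 1.24 ± 0.48, unadjusted p = 0.0285). Igtp, of the same family, stood at 246 and 369 CPM in KO1 and KO3 and at 30.8 and 35.01 in KO2 and KO4. Tgtp1 and Tgtp2, which are 99.8% identical and may share reads, stood apart in the same mice, Tgtp1 at 152 and 281 CPM in KO1 and KO3 and at 2.93 and 3.52 CPM in KO2 and KO4. KO1 and KO3 were also the highest in the macrophage sum. In the adipocyte sum they were the lowest, at 335 and 412 CPM, with KO2 and KO4 at 1568 and 1807 and Rab30 Ctrl at 769 to 962. The part of either cell type in these values was not tested.

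A small set of genes differed widely between mice, with the widest gap placed elsewhere than between the genotypes. Of 11653 protein-coding genes with a mean of at least 1 CPM, 35 had a gap of at least 4-fold between neighboring libraries with at least 2 libraries on each side. In 0 of the 35 did this widest gap separate Rab30KO from Rab30 Ctrl, although in 3 of them all 4 Rab30KO mice and WT221 lay on its high side. In Tead2 and Cyp4a31 all 4 Rab30KO mice lay there too, with 2 Rab30 Ctrl mice. Mup17, a major urinary protein, stood at 10.3 CPM in KO4 and 31.8 in WT281 but at 777 to 4570 in the other 6 mice. Mup11 stood at 1499, 173, 500 and 30.2 CPM in KO1 to KO4, at 215 CPM in WT221 and at or below 2.39 CPM in the other Rab30 Ctrl mice. Mup genes are near copies of each other, Mup11 and Mup17 at 98.7% identity, so the split of their reads is uncertain.

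Several of these genes behaved as present or absent. Ctse, an endosomal aspartic protease, was 0.3 and 0.314 CPM in KO2 and KO4 and 16.7 to 41.9 CPM in the other 6 mice. C1s2, a complement protease gene, was 0.126 CPM in KO4, 0 in WT951 and 8.03 to 19.4 in the other 6. Rpl29, a ribosomal protein gene with processed copies, stood at 37.8 to 91.2 CPM in KO2, KO4, WT952 and WT281 and at 0.316 to 0.665 CPM in the remaining 4, and Gstp3, a glutathione transferase, at 262 to 678 CPM in 5 mice and 4.61 to 5.52 in KO2, WT951 and WT952. Cyp2b9, a P450 that is female-biased in the liver, was 39.7 CPM in KO4, 32.1 in WT281 and 9.39 in WT951 and at most 0.672 in the other 5.

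**Figure D5:**
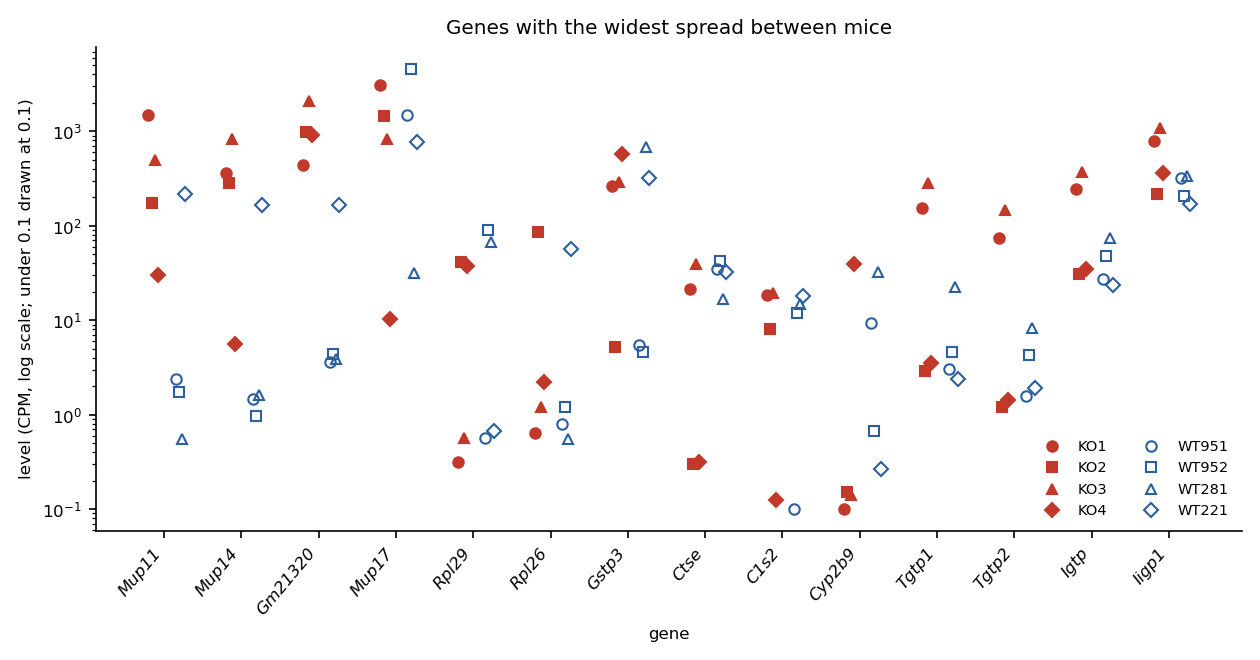
Level (CPM, log scale) of 14 genes with a wide spread in each of the 8 libraries, red filled symbols for KO1 to KO4 and blue open symbols for WT951, WT952, WT281 and WT221. Gaps such as those of Rpl29, Ctse and C1s2 run within both or one of the groups, and Tgtp1, Tgtp2, Igtp and Iigp1 are highest in KO1 and KO3.

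The whole-body and the liver-specific deletion were last set side by side, the latter as Rab30L-/- over ff;ff, to ask where loss of Rab30 in all tissues and in hepatocytes differ. The 2 comparisons share no libraries. Rab30KO is set against its own littermates, whereas ff;ff mice are labeled as littermates of DKO and not of Rab30L-/-. The part of litter or colony in the liver-specific change was not tested. In a fit of the difference between the 2 changes over 16 libraries, 3 of 14304 genes (0.021%) passed an adjusted p under 0.05, and 1098 (7.68%) had an unadjusted p under 0.05. The 3 were the transcribed pseudogene Gm4956, the interferon-induced DNA sensor family gene Mndal and Dab1, a reelin adaptor. Gm4956 had a log2 fold change of 2.41 ± 0.55 in Rab30KO and -4.39 ± 0.46 in Rab30L-/-, a difference of 6.84 ± 0.74 (edgeR adjusted p = 0.00047). With all 24 libraries scaled together, its level was 0.136 to 2.81 CPM in the Rab30KO and Rab30 Ctrl libraries, 0.0755 to 0.629 in Rab30L-/- and 4.61 to 10.4 in ff;ff.

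On the same scale, Mndal was at most 0.139 CPM in ff;ff and 4.68 to 7.75 in Rab30L-/-, and 8.08 to 23.2 in Rab30KO and its littermates, a difference of -6.41 ± 0.78 (adjusted p = 0.0014). Dab1 was at most 0.0697 CPM in ff;ff and 0.742 to 2.22 in Rab30L-/-, and 0.165 to 2.53 in Rab30KO and its littermates, a difference of -6.51 ± 0.93 (adjusted p = 0.00765). In all 3 genes ff;ff lay outside the range of the Rab30L-/-, Rab30KO and Rab30 Ctrl libraries. Of the 302 genes at an unadjusted p under 0.05 in Rab30KO, 272 were also tested in the liver-specific comparison, where 1495 genes (11.2%) reached that p and 64 (0.479%) passed the adjusted threshold. There, 31 of the 272 reached an unadjusted p under 0.05, beside 1462 of the 13114 genes tested in both, 16 with the same sign and 15 with the opposite sign. Rab30 itself was -0.34 ± 0.51 in Rab30KO and -1.10 ± 0.29 in Rab30L-/-, a difference of 0.78 ± 0.64 that did not pass the test (unadjusted p = 0.239).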

How the data were processed

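Whole-liver RNA of 8 mice was sequenced by Novogene, and raw counts per gene for all libraries were deposited by the authors. The submitters' processing notes name HISAT2, DESeq2 and GRCm38 (mm10). The counter, its version and its handling of multi-mapping reads are not given in the sources used here. FPKM values deposited by the authors were used only to rank Rab genes. The authors' normalized counts and their own comparisons (fold changes and p-values) were not used.

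Counts were normalized by TMM and tested with edgeR 4.0.16 (quasi-likelihood, filterByExpr) on the 8 libraries, with Benjamini-Hochberg adjustment and the thresholds of an adjusted p under 0.05 and 1.2-fold. The liver-specific comparison and the difference of both changes were fitted the same way. Single values were compared by two-sided exact permutation tests. Alternatives were DESeq2 1.42.0, limma 3.58.1 (voom), DESeq2 size factors, other filters, all 24 libraries and leaving out each library. The script was tested on simulated data. Replicates were separate animals and differed by more than sampling noise. Copies were matched with BLASTN 2.17.0 on GENCODE M21 transcripts. Intervals cover counting error only.

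Some genes and 1 sequence the rules select are not reported here. Genes were named by rule: Rab30, Cpt2, all genes past the thresholds, the 12 protein-coding genes of smallest p in each direction without overlap, the leading members of each list, genes the study names in the liver, genes within 1 Mb of Rab30 and those with the widest spread or gap between mice. Gene copies and sums, chromosome stretches and genes apart from all other libraries were chosen after their values were seen. The members and the gene lists were chosen with earlier results of these data known.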

Additional observations from a re-analysis of the deposited data

Results flagged for a closer look

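In 206 groups of 4 libraries, each 1 gene or 1 library measure in 1 genotype, the highest or lowest library was checked against the other 3. It stood apart by Dixon's test at 95% in 14 (6.8%), all of them genes, where chance gives about 5%. Within Rab30KO these were KO1 at 84.3 CPM in Cpt2 (others 158 to 171), 268 in Ftl1 (120 to 139) and 7.12 in Prcp (9.62 to 9.86), KO2 at 6.38 in Tcp11l1 (8.14 to 8.31) and KO3 at 0.563 in Ppih (1.05 to 1.13). KO4 stood apart at 60.6 CPM in Eif3j1 (37.4 to 40.6), 39.7 in Cyp2b9 (at most 0.150) and 729 in Mia2 (505 to 540). Within Rab30 Ctrl, WT951 stood at 238 CPM in Vcp-rs (176 to 184) and 20.4 in Pdk4 (6.05 to 8.31), and WT952 at 12.8 in AA986860 (9.37 to 9.79). WT281 stood at 27.5 CPM in Pepd (34.4 to 34.8) and 22.7 in Tgtp1 (2.39 to 4.66), and WT221 at 215 in Mup11 (0.554 to 2.39).

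The whole-body and the liver-specific change differed by a test of the difference itself in 3 genes, by -6.41 on the log2 scale in Mndal, 6.84 in Gm4956 and -6.51 in Dab1. The ff;ff libraries of the liver-specific comparison lay outside the range of the Rab30KO and Rab30 Ctrl libraries in each of the 3 genes.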

How the results depend on the processing

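With DESeq2 size factors or limma-voom the count of genes past the thresholds in Rab30KO against Rab30 Ctrl was 3, and these were the same genes. It was 10 with the DESeq2 Wald test (6 higher, 4 lower), 9 with all 24 libraries in the fit (4 higher, 5 lower) and 6 with no filter on low counts (3 higher, 3 lower). It was 302 at an unadjusted p, and 0 in edgeR when 10 counts were required in every library, where 261 genes had an unadjusted p under 0.05. Leaving out 1 library gave 0 to 4 genes, with 0 in edgeR without KO1, without WT951 and without WT952, where 223, 770 and 159 genes had an unadjusted p under 0.05. For the difference between the whole-body and the liver-specific change, the count was 59 with the DESeq2 Wald test, 12 with all 24 libraries, 18 with no filter and 3 to 11 leaving out 1 library. The causes were not tested beyond the smaller number of libraries or genes in such fits. The added genes of the DESeq2 Wald test were Ftl1, Ftl1-ps1, Gm15590, Gm9247, 0610005C13Rik, Tubgcp5 and Uevld. Those added with all 24 libraries included Ftl1, Ftl1-ps1, Gm15590, 0610005C13Rik and Uevld. No named gene reversed in any alternative where its difference exceeded its standard error. No paired analysis was possible because the library labels carry no replicate numbers shared between the genotypes. Depth limits genes of few counts, such as Gm3650 with 3 counts over the 4 Rab30 Ctrl libraries.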
